A study of Mus musculus with 8 samples.

Results

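Heat shock proteins and their partners are the protein folding machinery of the cell, and 76 of their genes were followed in layer IV of the mouse visual cortex. They were chosen by symbol alone: the Hspa, Hspb, Hspd, Hspe and Hsph genes, Hsp90 genes, Dnaja, Dnajb and Dnajc genes, Bag1 to Bag6 and the Cct genes, plus Cryab, Hsf1, Hsf2, St13 and Stip1, with pseudogenes left out. Of the 34980 genes in the files, 90 symbols matched, and the 76 with a total of 100 counts or more over the libraries were kept. All 76 passed the low-count filter and were among the 15841 genes tested. By class they were 38 J-domain genes, 11 HSP70 and HSP110 genes, 9 chaperonin genes, 6 BAG genes, 5 small heat shock genes, 3 HSP90 genes, 2 heat shock factors and 2 adaptors (St13 and Stip1). At the minimum, Hspb6 (108 counts), Dnajc17 (162) and Bag3 (175) lay just inside, and Hspa1a (84), Hspa1b (74) and Hspa1l (68) just outside.

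HSP70 proteins bind exposed hydrophobic stretches of unfolded proteins in cycles of ATP binding and hydrolysis. J-domain proteins bring the clients and stimulate the hydrolysis, while HSP110 and BAG proteins release the nucleotide. HSP90 proteins take over clients from HSP70 through adaptors, chaperonins fold proteins inside a closed ring, and small heat shock proteins hold unfolded proteins without using ATP. Heat shock factor Hsf1 drives the inducible members through heat shock elements, which are inverted repeats of the letters GAA. Secretory pathway chaperones instead carry endoplasmic reticulum (ER) stress elements. In neurons the constitutive HSP70, Hspa8, also strips clathrin from synaptic vesicles.

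All mice were of the B6D2 strain. The groups were wild type (Otx2 +/+) at postnatal day 30 (P30), wild type at P100 and heterozygous (labelled Otx2 +/-, Otx2 (+/GFP) in the series' design) at P30, with 2 libraries each and tissue pooled from 4 mice per condition. Otx2 encodes a homeodomain transcription factor that cortical cells take up rather than make. The 2 heterozygous P100 samples are not analysed here. Nothing in the labels says whether duplicates are separate pools, so the p-values cover only the spread between these libraries, which may be technical.

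Gene-level totals ran from 11016841 to 15308781 counts, of which 0.793% to 0.850% fell on the 76 chaperone genes. The 7 markers of layer 4 neurons were detected in every group, but not all at equal levels. At an edgeR adjusted p under 0.05, Cux1 and Whrn were lower in heterozygotes than at wild-type P30, and none was higher. With age Plcxd2 was lower and Rspo1 higher. Rspo1, Scnn1a and Whrn were lower in heterozygotes than at wild-type P100, and none was higher. Several features of the libraries moved with the groups. The 10 oligodendrocyte markers summed to 3190 to 3315 CPM (counts relative to library size, scaled by the trimmed mean of M-values, TMM) at wild-type P30, 1563 to 1851 at wild-type P100 and 2291 to 2352 in heterozygotes. None of the 10 was at 0 in any group. The 10 genes of the neuronal activity list summed to 2400.2 to 2945 CPM at wild-type P30, 492 to 573 at wild-type P100 and 446 to 736 in heterozygotes. Heterozygous replicate 2 held 612 CPM of choroid plexus markers, against 0.822 to 1.74 in the other 5 libraries. Otx2 itself was at 0 counts in all libraries except that one, so it checks no label. Xist was higher and 4 Y-linked genes were lower in the heterozygous libraries, so genotype and these sex-linked differences cannot be told apart. In bulk tissue, fewer cells of a type and less RNA per cell cannot be told apart either.

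Promoter letters were read from RefSeq windows (GRCm38.p6, the mm10 build) that 60 of the 76 genes have. Hspa8, Cryab and Hsp90aa1 are among those without a window, so their promoters were not searched. The 250 bases before each start were searched on both strands. The heat shock element with 3 repeat units, TTCNNGAANNTTC, was present in 3 members (5%), Dnajb6, Hspd1 and Hspe1, and in 0.514% of all 27025 genes with a window. The shorter GAANNTTC, which it contains, was in 9 members (15%) and 7.73% of all genes. The other 2-unit form, TTCNNGAA, also contained in it, was in 7 members (11.7%), Hsph1 among them, and 8.12% of all genes. The ER stress element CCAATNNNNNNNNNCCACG was in 3 members (5%), Hspa5, Hsp90b1 and Dnajc3, and 0.13% of all genes. Hspd1 and Hspe1 lie head to head on chromosome 1, and their windows overlap. Both windows hold the same 2 overlapping matches, read on opposite strands, so the same letters are counted for both genes. A different match of the 2 is printed for each gene. Of the 2-unit matches, that of Hsph1 is shown because the gene was called in the comparisons described next. Matches to the longer elements are shown because they were more frequent among members than among all genes, though few members held them. The motif is in capitals and each line is read 5′ to 3′ on the gene's strand.
Hspe1, heat shock element, chr1:55088051-55088080, plus strand: acggtccgTTCTAGAACCTTCcggaaggcc
Hspd1, heat shock element, chr1:55088055-55088084, minus strand: gcggggccTTCCGGAAGGTTCtagaacgga
Dnajb6, heat shock element in reverse, chr5:29735844-29735873, plus strand: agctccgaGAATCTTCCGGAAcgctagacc
Hsph1, 2-unit heat shock element, chr5:149636351-149636380, minus strand: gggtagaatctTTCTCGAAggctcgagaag
Hspa5, ER stress element, chr2:34772020-34772049, plus strand: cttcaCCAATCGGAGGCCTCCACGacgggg
Hsp90b1, ER stress element, chr10:86705632-86705661, minus strand: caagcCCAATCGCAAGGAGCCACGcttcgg
Hsp90b1, ER stress element in reverse, chr10:86705527-86705556, minus strand: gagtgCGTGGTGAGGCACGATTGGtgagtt
Dnajc3, ER stress element, chr14:118937822-118937851, plus strand: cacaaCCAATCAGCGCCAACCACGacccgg
A match is a run of letters, not a measured binding site.

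The first comparison set wild-type P100 against wild-type P30 and asked how the machinery differs between the adult cortex and the age of the critical period. Most members differed little. Of the 76, 40 differed by less than 1.1-fold and 65 by less than 1.25-fold. Past an adjusted p of 0.05 (edgeR quasi-likelihood test, adjusted over all genes tested), 3 members fell and 2 rose with age, beside 4.54% of all tested genes called lower and 3% higher. At an unadjusted p under 0.05, 11 members were lower and 5 higher, beside 12.3% and 10.4% of all genes. The genes that fell were Dnajb5, Hsph1 and Cryab, and those that rose were Dnajc28 and Dnajc19. The median log2 difference was 0.00 over the members and 0.00 over all genes tested.

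The second comparison, of heterozygous with wild-type P30 libraries, asked what differs with 1 Otx2 allele missing. Again most members differed little, 40 by less than 1.1-fold and 66 by less than 1.25-fold. Here 3 members fell, Hspa8, Dnajb5 and Hsph1, and none rose, beside 2.32% of all genes called lower and 0.903% higher. At an unadjusted p under 0.05, 3 members were higher and 11 lower in edgeR, beside 7.53% and 9.8% of all genes. DESeq2 and limma-voom also gave 0 higher and 3 lower. The median log2 difference was -0.03 over the members and 0.00 over all genes. Both comparisons use the same wild-type P30 libraries and are not independent.

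**Figure D1:**
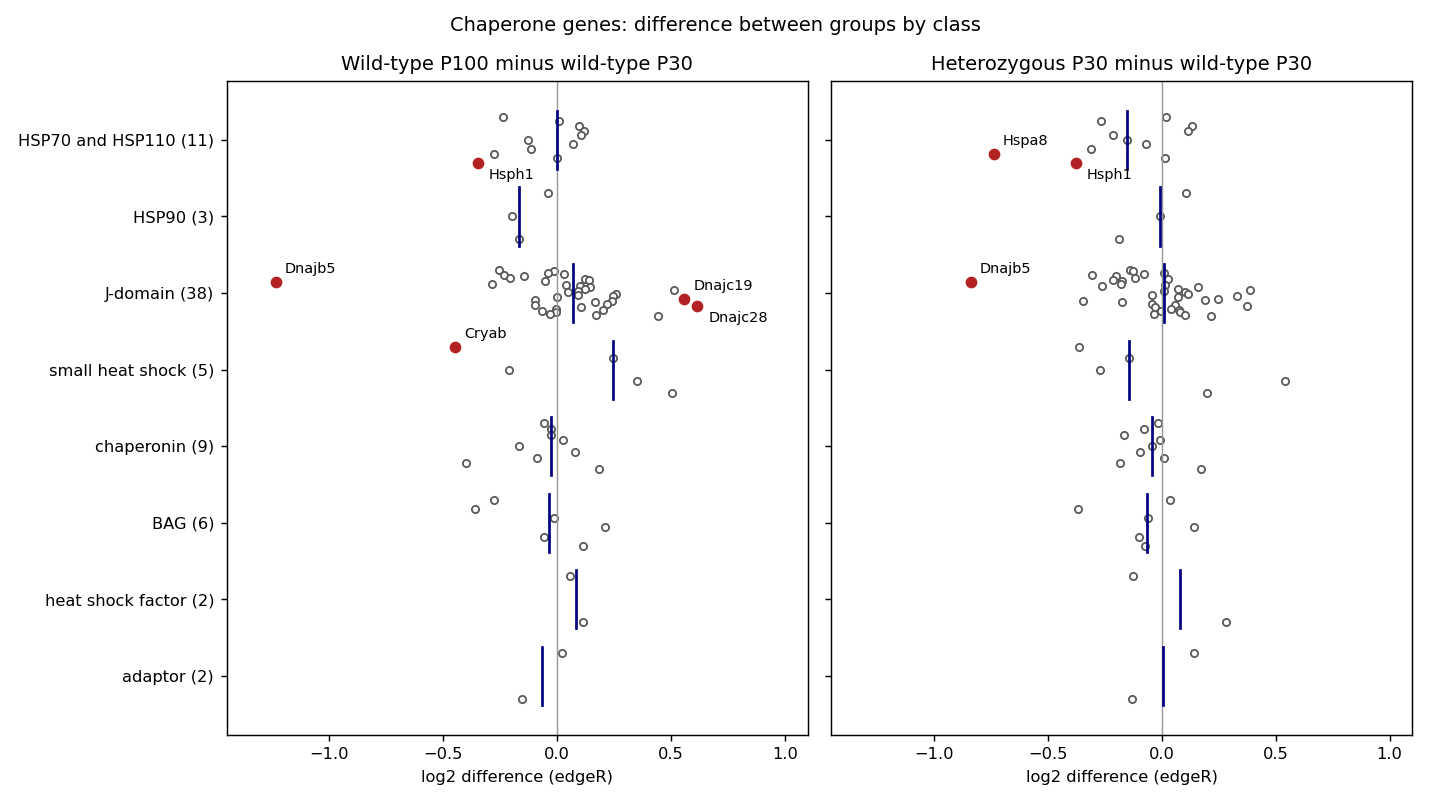
Log2 difference (edgeR) of each of the 76 chaperone genes, by class (number of genes in brackets), for wild-type P100 minus P30 (left) and heterozygous minus wild-type P30 (right). Filled red points passed an adjusted p of 0.05, open points did not, blue bars are class medians, and vertical position within a class has no meaning. Dnajb5 lies far below the other J-domain genes in both panels, at -1.23 and -0.84.

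A further comparison set heterozygous P30 against wild-type P100, which equals the second difference minus the first and so tests whether the 2 differ. Group age, genotype and the sex-linked genes all differ between these libraries. Here 2 members fell, Hspa8 and Dnajc21, and none rose, beside 2.66% of all genes called lower and 2.44% higher. In edgeR 6 members were higher and 7 lower at an unadjusted p under 0.05, beside 9.9% and 9.53% of all genes. DESeq2 gave 1 higher and 2 lower, and limma-voom 0 and 2. In this comparison 45 members differed by less than 1.1-fold.

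Groups with values that do not overlap are frequent with 2 libraries each. For age, 20 members were higher and 23 lower in both P100 libraries than in both P30 libraries, beside 25.5% and 25.7% of all genes. For genotype 16 were higher and 23 lower without overlap, beside 24.5% and 24.4% of all genes. Between heterozygous P30 and wild-type P100 the counts were 16 and 24, beside 25.4% and 25% of all genes.

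Among the J-domain genes, Dnajb5 had the largest differences for age and genotype. It encodes a cytosolic J-domain protein (ENSMUSG00000036052, chromosome 4, 42949814 to 42959425, plus strand, mm10). Its level was 174 and 231 CPM in the wild-type P30 libraries, 96.0 and 76.1 at P100 and 107 and 119.6 in heterozygotes. Both wild-type P30 libraries lay above all 4 others. With age it fell 2.35-fold, its mean going from 202 ± 40.6 to 86.0 ± 14.0 CPM (SD, n = 2 each). This was a log2 difference of -1.23 (SE 0.13, edgeR adjusted p = 8.3e-05). In heterozygotes it fell 1.79-fold, to 113 ± 8.87 CPM, a log2 difference of -0.84 (SE 0.12, edgeR adjusted p = 0.00216). The heterozygous level lay above the P100 level without overlap, with a log2 difference of 0.39 that did not pass (edgeR adjusted p = 0.0992).

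The Dnajb5 isoform with the most counts is annotated as retaining an intron. Across genes with more than 1 isoform, the second often had nearly as many counts as the first. The median was 0.883 times where the first had 100 counts or more, and 0.814 times over the members. Isoforms may therefore hold the same reads and are not counted as separate evidence. Over the 7 isoforms of Dnajb5 the log2 difference ran from -1.35 to -1.15 for age and from -0.93 to -0.77 for genotype. None of its 50-base windows occurs in another gene's transcripts. The gene's RefSeq windows held no match to the motifs searched. The summed neuronal activity markers fell between the same groups, and their part in the Dnajb5 result was not tested.

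A pair of Dnajc genes rose with age. Dnajc28 (ENSMUSG00000039763, chromosome 16, 91614254 to 91619026, minus strand) stood at 20.8 and 16.2 CPM at wild-type P30, 26.7 and 29.7 at P100 and 24.7 and 22.9 in heterozygotes. The 3 groups did not overlap, with heterozygotes between the wild-type ages. It rose 1.53-fold, from 18.5 ± 3.26 to 28.2 ± 2.14 CPM (SD, n = 2 each; log2 difference 0.62, SE 0.13, edgeR adjusted p = 0.0134). Leaving out wild-type P30 replicate 2 (adjusted p = 0.10) or wild-type P100 replicate 2 (0.111) ended the call. The heterozygous difference of 0.37 did not pass (edgeR adjusted p = 0.157).

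Dnajc19, a part of the motor that pulls proteins into mitochondria (ENSMUSG00000027679, chromosome 3, 34056020 to 34081321, minus strand), stood at 8.67 and 7.93 CPM at wild-type P30. It reached 11.5 and 12.9 at P100 and 9.92 and 9.70 in heterozygotes, again with no overlap between the groups. The rise with age was 1.47-fold (log2 difference 0.56, SE 0.15, edgeR adjusted p = 0.041). Of 16 alternative settings, 9 ended this call, the removal of any 1 library among them, so it rests on all 6 libraries together. Over its 4 isoforms the age difference ran from -0.01 to 0.56.

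Dnajc21, which works in ribosome assembly (ENSMUSG00000044224, chromosome 15, 10446756 to 10470516, minus strand), passed between heterozygous P30 and wild-type P100. Its level was 48.1 and 68.3 CPM at wild-type P30, 72.9 and 65.1 at P100 and 44.6 and 47.6 in heterozygotes. The wild-type P30 libraries were far apart, and the heterozygous libraries lay below both wild-type groups. Between heterozygous P30 and wild-type P100 the log2 difference was -0.58 (SE 0.13, edgeR adjusted p = 0.0209). The call was lost without wild-type P100 replicate 1 (0.176), wild-type P100 replicate 2 (0.069) or heterozygous replicate 1 (0.119), and with counts summed over isoforms (0.0541).

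None of the remaining J-domain genes passed in edgeR. The 25 Dnajc genes had a median log2 difference of 0.12 for age, with 18 positive, and 0.07 for genotype, with 17 positive. The 9 Dnajb genes had medians of -0.15 and -0.18, and the 4 Dnaja genes -0.03 and -0.10. Dnajc12, a partner of the aromatic amino acid hydroxylases, had 6.39 and 5.63 CPM at wild-type P30, 8.69 and 8.36 at P100 and 8.51 and 7.16 in heterozygotes. Wild-type P30 was lowest without overlap, yet the differences of 0.51 and 0.39 did not pass (edgeR adjusted p = 0.104 and 0.28). Dnajc9, a histone chaperone named after its values were seen, was nearest the threshold for age among them, with 15.5 and 16.7, 22.9 and 20.9, and 20.4 and 17.1 CPM. Its age difference was 0.44 (SE 0.13, edgeR adjusted p = 0.0532). The heat-inducible partner of HSP70, Dnajb1, had 38.5 and 49.7 CPM at wild-type P30, 39.2 and 36.1 at P100 and 35.0 and 36.6 in heterozygotes. Neither of its differences passed (-0.23 and -0.31; edgeR adjusted p = 0.264 and 0.189). Dnajb6, with the 3-unit heat shock element printed above, differed by -0.28 and -0.18, and Dnajc3, with the ER element, by 0.11 and -0.03, none of them past the threshold.

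Of the J-domain genes that act at synapses or on clathrin coats, Dnajc6 and Dnajc5 were abundant and Dnajb2 was low. Dnajc6 (auxilin), which recruits Hspa8 to clathrin coats, stood at 508 and 508 CPM at wild-type P30, 505 and 507 at P100 and 542 and 532 in heterozygotes. Its log2 differences were -0.00 (SE 0.06) for age and 0.08 (SE 0.06) for genotype. Dnajc5, the cysteine string protein of synaptic vesicles, stood at 462 in both wild-type P30 libraries, 445 and 439.5 at P100 and 467 and 455 in heterozygotes (log2 differences -0.06 and -0.00, SE 0.06 each). Dnajb2 stood at 16.2 and 19.5 CPM at wild-type P30, 19.98 and 19.4 at P100 and 14.7 and 16.2 in heterozygotes. Its differences of 0.14 for age and -0.21 for genotype did not pass, nor did that of -0.35 between heterozygotes and P100 (SE 0.13, edgeR adjusted p = 0.144), although those libraries did not overlap. These 3 genes were named after their values were seen.

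In the HSP70 and HSP110 class, 1 of 11 members fell with age and 2 fell in heterozygotes, beside 4.54% and 2.32% of all genes. At an unadjusted p under 0.05 in edgeR, 3 were lower with age and 5 in heterozygotes, beside 12.3% and 9.8% of all genes. None was higher, beside 10.4% and 7.53%. The class median was -0.00 for age and -0.15 for genotype, where 4 of the 11 values were positive. Hsph1 is an HSP110 protein, a nucleotide exchange factor for HSP70 (ENSMUSG00000029657, chromosome 5, 149614287 to 149636376, minus strand). It had 329 and 332 CPM at wild-type P30, 262 and 258 at P100 and 264 and 245 in heterozygotes. Both wild-type P30 libraries were above the other 4, and P100 and heterozygous values overlapped. With age it fell 1.27-fold (log2 difference -0.35, SE 0.07, edgeR adjusted p = 0.00677), and in heterozygotes 1.30-fold (-0.38, SE 0.07, edgeR adjusted p = 0.00628). The age call was lost without wild-type P100 replicate 2 (0.0667). The genotype call was lost without heterozygous replicate 2 (0.0824), the library with choroid plexus markers, where the log2 difference was -0.32. Heterozygotes and P100 differed by -0.03 (SE 0.07).

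Hspa8, the constitutive HSP70 (ENSMUSG00000015656, chromosome 9, 40800984 to 40810087, plus strand), differed more by genotype than by age. Its level was 122 and 109.6 CPM at wild-type P30, 89.2 and 102 at P100 and 66.6 and 72.0 in heterozygotes. Heterozygous libraries were the lowest, and no groups overlapped. In heterozygotes it fell 1.67-fold, from 116 ± 8.53 to 69.3 ± 3.85 CPM (SD, n = 2 each; log2 difference -0.74, SE 0.09, edgeR adjusted p = 5.1e-04). With age the difference of -0.28 did not pass (SE 0.09, edgeR adjusted p = 0.0736). The test of heterozygotes against wild-type P100 passed with -0.46 (SE 0.09, edgeR adjusted p = 0.00939). That call was lost without wild-type P100 replicate 2 (0.115) or heterozygous replicate 1 (0.10).

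The Hspa8 level needs care, because 52.7% of the 50-base windows of its transcript also occur in 15 other genes. The isoform used retains an intron, and 8.3% of its exon bases overlap small nucleolar RNA genes. Over its 9 isoforms the genotype difference ran from -1.36 to -0.60, and all were negative. The age difference ran from -1.38 to -0.01.

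Other HSP70 members did not pass for age or genotype. Hspa5 (BiP), the HSP70 of the ER, had 417 and 402 CPM at wild-type P30, 413 and 342 at P100 and 351 and 308 in heterozygotes. Heterozygotes lay below wild-type P30 without overlap, and the P100 libraries were split. Its genotype difference was -0.31 (SE 0.09, edgeR adjusted p = 0.0753), and it was called under 3 of 16 alternatives. Mitochondrial Hspa9 hardly moved, with 181 and 173 CPM at wild-type P30, 180.4 and 174 at P100 and 183 and 175 in heterozygotes (log2 differences -0.00 and 0.01, SE 0.07 each). Hspa12a, a distant relative, had 342 and 324 CPM, then 291 and 274 at P100 and 353 and 322 in heterozygotes, lower at P100 without overlap (-0.24, edgeR adjusted p = 0.057). That age difference was called under 2 of 16 alternatives. Hspa13 had 69.6 and 79.2 CPM, then 81.1 and 78.3, and 86.1 and 77.5 in heterozygotes. For the gene that the files call Hspa14 (ENSMUSG00000051396, named Gm45902 in GENCODE M21, with 17.9% of its exon bases in the gene named Hspa14 there), the same order gave 35.9 and 36.4, 40.5 and 38.01, and 40.6 and 37.7 CPM. Of the age and genotype differences of Hspa13 and Hspa14, the largest was 0.13 (Hspa13, genotype).

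The stress-induced HSP70 genes had few counts and lie outside the 76. Counts of Hspa1a were 13 and 16 in wild-type P30, 15 and 10 in P100 and 16 and 14 in heterozygous libraries. Hspa1b had 6 and 11, 22 and 20, and 7 and 8 counts, higher at P100 than in both P30 groups without overlap. The age difference of 1.31 did not pass (SE 0.42, edgeR adjusted p = 0.0745), while heterozygotes were lower than P100 by -1.74 (SE 0.43, edgeR adjusted p = 0.0311). The transcripts of Hspa1a and Hspa1b share 66.3% and 62.3% of their windows with other genes, each other included, and the part of shared reads in their low counts was not tested. Small heat shock gene Hspb1 had 2 and 2, 1 and 1, and 0 and 0 counts, and shares 60.4% of its windows with other genes, Hsp25-ps1 among them.

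**Figure D2:**
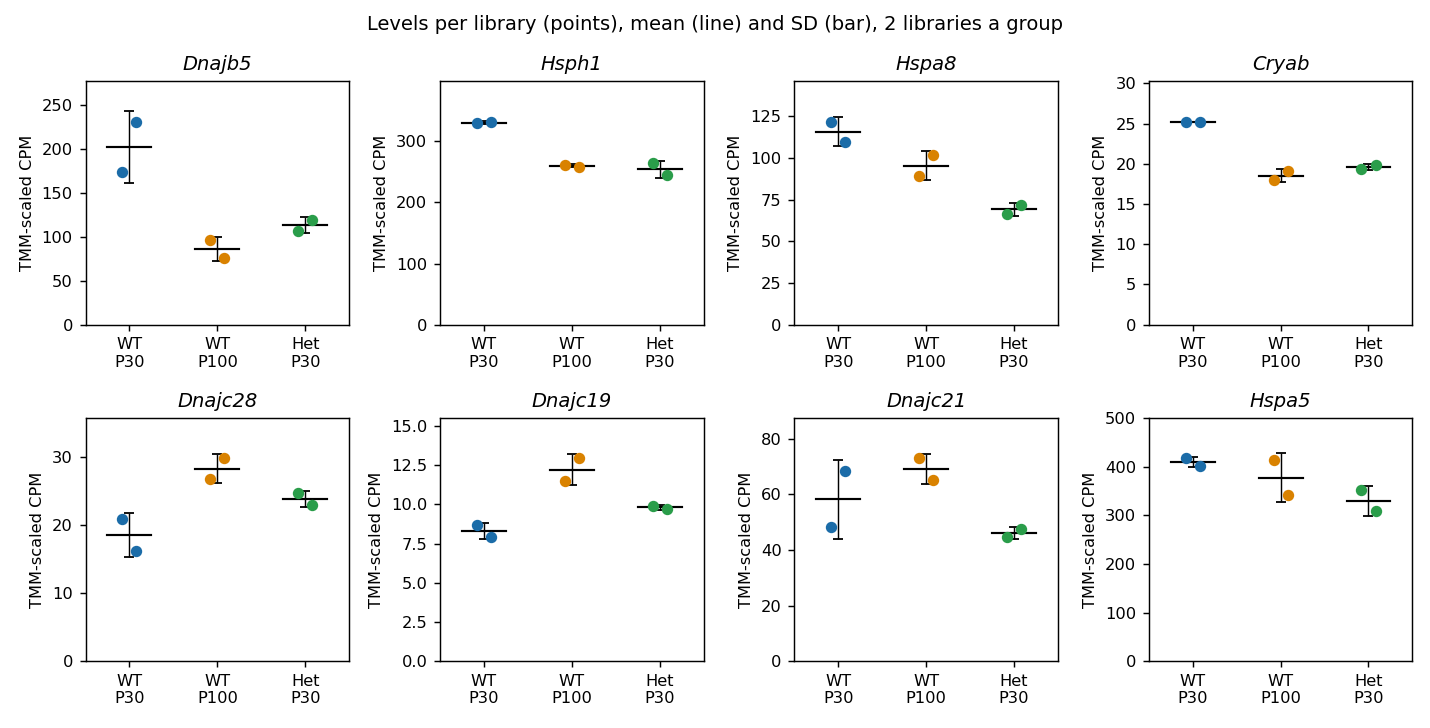
TMM-scaled CPM in each library (points) with the group mean (line) and SD (bar, n = 2) for the 7 members called in any comparison and Hspa5, with each axis starting at 0. Dnajb5, Hsph1, Hspa8 and Cryab are highest in wild-type P30, Dnajc28 and Dnajc19 in wild-type P100.

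None of the 3 HSP90 genes passed in any comparison in the main edgeR fit, DESeq2 or limma-voom. Without a filter on low counts, edgeR called Hsp90ab1 lower with age. In the main fit 2 of the 3 were lower with age and 1 in heterozygotes at an unadjusted p under 0.05, beside 12.3% and 9.8% of all genes. Cytosolic Hsp90ab1 was the most abundant member per length (332 CPM per kb of transcript, mean of the libraries), with 849.95 and 902 CPM at wild-type P30, 756 and 772 at P100 and 920.2 and 822 in heterozygotes. It was lower at P100 without overlap, by -0.20 (SE 0.07, edgeR adjusted p = 0.107), while heterozygotes overlapped wild type. Hsp90b1, the HSP90 of the ER with a pair of ER stress elements, had 491 and 479 CPM, then 447 and 417 at P100 and 447 and 404 in heterozygotes. Both groups lay below wild-type P30 without overlap, by -0.17 and -0.19 (SE 0.07 each, edgeR adjusted p = 0.177 and 0.175). The heat-inducible Hsp90aa1 had 22.3 and 19.3, 18.7 and 21.7, and 24.3 and 20.3 CPM, with overlap throughout.

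Some members share sequence with other genes. Of 75 members with a GENCODE M21 transcript, 41 had no 50-base window in common with a gene of another name, and 9 had 20% or more. Hspa14 is among the 41, although 17.9% of its exon bases lie in the gene that GENCODE M21 names Hspa14. That gene was skipped because of its name. Hsp90aa1 shared 58.5% of its windows, Hspa8 52.7%, Dnaja4 51.9% (with Wdr61, which overlaps it on the other strand) and Hspd1 44.8%. Levels per length of these 4 were 6.43, 29.6, 16.7 and 3.73 CPM per kb, beside a median of 18.9 over the members. How the authors treated reads that fit several places is not given in the sources used here, and its part in these levels was not tested. Exons of 9 members overlapped another gene by 10% or more, among them Hsp90b1 (21.6%) and Dnajc7 (18.9%, with the myelin gene Cnp and Nkiras2). Without a statement on strand, such reads cannot be assigned.

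**Figure D3:**
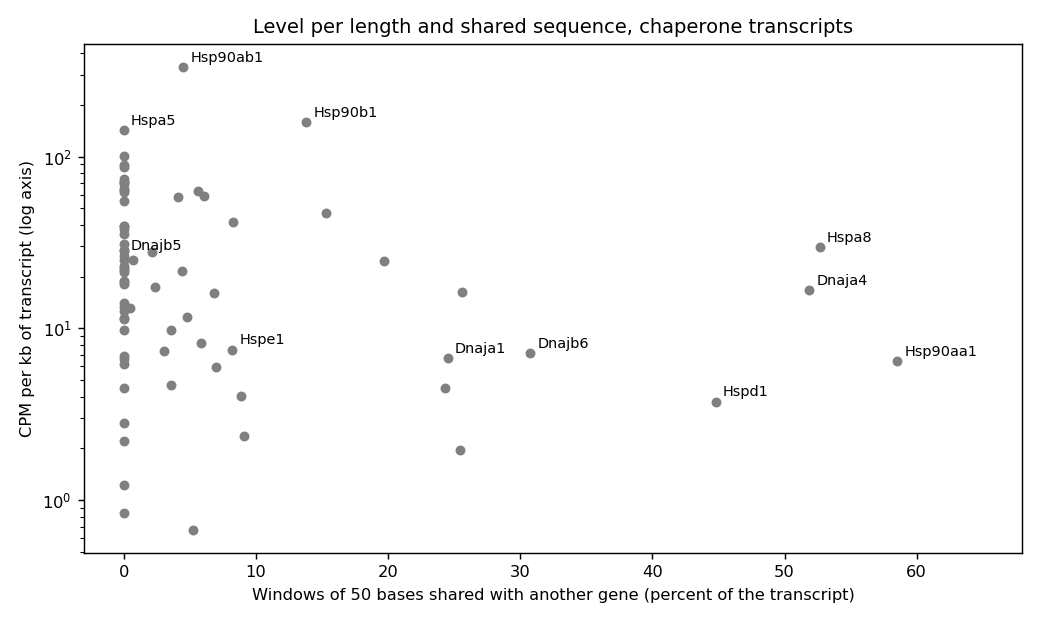
Level per kb of transcript (CPM per kb, mean of the 6 libraries, log axis) against the percentage of a transcript's 50-base windows that also occur in another gene, for 75 chaperone genes. Hsp90aa1, Hspa8, Dnaja4 and Hspd1 lie at 44.8% to 58.5% shared sequence, and 41 genes lie at 0. Genes of the same name were skipped, so Hspa14 is at 0 despite its overlap with the gene named Hspa14 in GENCODE M21.

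Among the 5 small heat shock genes, Cryab fell with age. It encodes alpha-B crystallin, which is abundant in myelinating glia as well as in lens and muscle (ENSMUSG00000032060, chromosome 9, 50751325 to 50756636, plus strand). Its level was 25.2 and 25.2 CPM at wild-type P30, 17.95 and 19.1 at P100 and 19.4 and 19.9 in heterozygotes. Wild-type P30 was highest, and no groups overlapped. The fall with age was 1.36-fold (log2 difference -0.45, SE 0.11, edgeR adjusted p = 0.0276), and the heterozygous difference of -0.36 did not pass (SE 0.11, edgeR adjusted p = 0.0933). The age call was lost under 6 of 16 alternatives, with DESeq2 (0.0928), with summed isoforms (0.0737) and without any 1 of the 4 wild-type libraries (0.0717 to 0.134). Oligodendrocyte markers were lower in the same groups, 9 of 10 with age and 10 of 10 in heterozygotes, and their part in the Cryab result was not tested.

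The other small heat shock genes were low. Hspb8, which works with Bag3 in clearing damaged proteins, had 3.93 and 2.85 CPM at wild-type P30, 4.27 and 5.28 at P100 and 3.82 and 3.84 in heterozygotes. Its age difference of 0.51 did not pass (SE 0.25, edgeR adjusted p = 0.244). Hspb6 had 1.00 and 1.11, 1.09 and 1.67, and 1.34 and 1.76 CPM in the same order, and Hspb11, a subunit of ciliary transport, 3.10 and 2.22, 2.68 and 3.61, and 2.14 and 2.60. The genotype difference of Hspb6, 0.54, was the highest of all members and had an SE of 0.39.

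No chaperonin gene passed for age or genotype in edgeR, DESeq2 or limma-voom. At an unadjusted p under 0.05 in edgeR 1 of the 9 was lower with age, beside 12.3% of all genes. None differed by genotype, beside 9.8% of all genes lower and 7.53% higher. The 7 Cct genes, subunits of the cytosolic ring that folds actin and tubulin, had medians of -0.03 and -0.04 and all lay within 1.25-fold. Cct7 had 110.8 and 91.9 CPM at wild-type P30, 106 and 107 at P100 and 96.7 and 92.4 in heterozygotes. Neither gene of the mitochondrial pair, whose windows hold overlapping heat shock elements, passed. Hspd1 had 9.95 and 10.6 CPM at wild-type P30, 7.82 and 7.74 at P100 and 9.585 and 8.53 in heterozygotes, and lay lower at P100 without overlap (-0.40, SE 0.16, edgeR adjusted p = 0.147). Hspe1 had 7.30 and 6.05, 7.09 and 8.01, and 7.71 and 7.23 CPM, with overlapping groups (0.18, SE 0.18).

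BAG genes, heat shock factors and adaptors held no call in the main edgeR fit, DESeq2 or limma-voom. Without a filter on low counts, edgeR called Bag1 lower with age. At an unadjusted p under 0.05 in edgeR, 1 BAG gene was higher and 1 lower with age, and 1 adaptor was lower with age. In heterozygotes 1 heat shock factor was higher. Of all genes, 10.4% were higher and 12.3% lower with age, and 7.53% were higher in heterozygotes. Bag1, an exchange factor that also binds the proteasome, had 116 and 91.0 CPM at wild-type P30, 81.3 and 89.6 at P100 and 116 and 96.1 in heterozygotes. Bag2 had 8.95 and 11.3, 8.40 and 7.48, and 6.97 and 8.85 CPM, and differed by -0.36 and -0.37 (SE 0.18 each, edgeR adjusted p = 0.266 and 0.316). For Bag4 the values were 112 and 108, 133 and 122, and 126 and 117 CPM. Wild-type P30 was the highest group for Bag2 and the lowest for Bag4, without overlap. Bag6, which guards membrane proteins before insertion, had 81.7 and 84.5, 91.6 and 88.5, and 69.6 and 88.2 CPM. Stress-inducible Bag3 was near 2 CPM throughout (2.01 and 2.36, 2.32 and 2.02, and 1.88 and 2.34).

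The transcription factor Hsf1 had 13.1 and 12.4 CPM at wild-type P30, 14.3 and 11.97 at P100 and 11.5 and 11.7 in heterozygotes. Hsf2 had 27.8 and 26.3, 30.7 and 27.8, and 31.8 and 34.0 CPM, highest in heterozygotes without overlap (0.28 above wild-type P30, SE 0.11, edgeR adjusted p = 0.176). Stip1 (Hop), which hands clients from HSP70 to HSP90, had 143 and 142, 128 and 129, and 134 and 126 CPM. Both other groups were lower than wild-type P30 without overlap, by -0.15 and -0.13 (SE 0.07 each), without passing. St13 (Hip), which stabilises HSP70 with ADP bound, had 208 and 204, 215 and 203, and 232 and 222 CPM, with a genotype difference of 0.14 (SE 0.07).

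Summed over a class, HSP70 and HSP110 genes held 2307 and 2267 CPM at wild-type P30, 2155 and 2076 at P100 and 2125 and 1952 in heterozygotes. Both other groups lay below wild-type P30. HSP90 genes summed to 1363 and 1401, 1222 and 1211, and 1392 and 1246 CPM, below wild-type P30 without overlap at P100 but not in heterozygotes. J-domain genes summed to 3226 and 3337 CPM at wild-type P30, 3258.5 and 3140.3 at P100 and 3220.1 and 3162 in heterozygotes, where the wild-type ages overlapped and heterozygotes lay just below wild-type P30. Small heat shock genes summed to 42.5 and 41.7, 33.6 and 39.2, and 33.8 and 37.2 CPM, highest in wild-type P30. The 2 adaptors summed to 351 and 346, 343 and 332, and 366 and 348 CPM, lowest at P100. No test was made on sums. The most abundant members set the level of a sum, but not always its difference between groups. Mean J-domain sums were 3281 CPM at wild-type P30 and 3191 in heterozygotes, and means of Dnajb5 alone were 202 and 113 CPM.

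**Figure D4:**
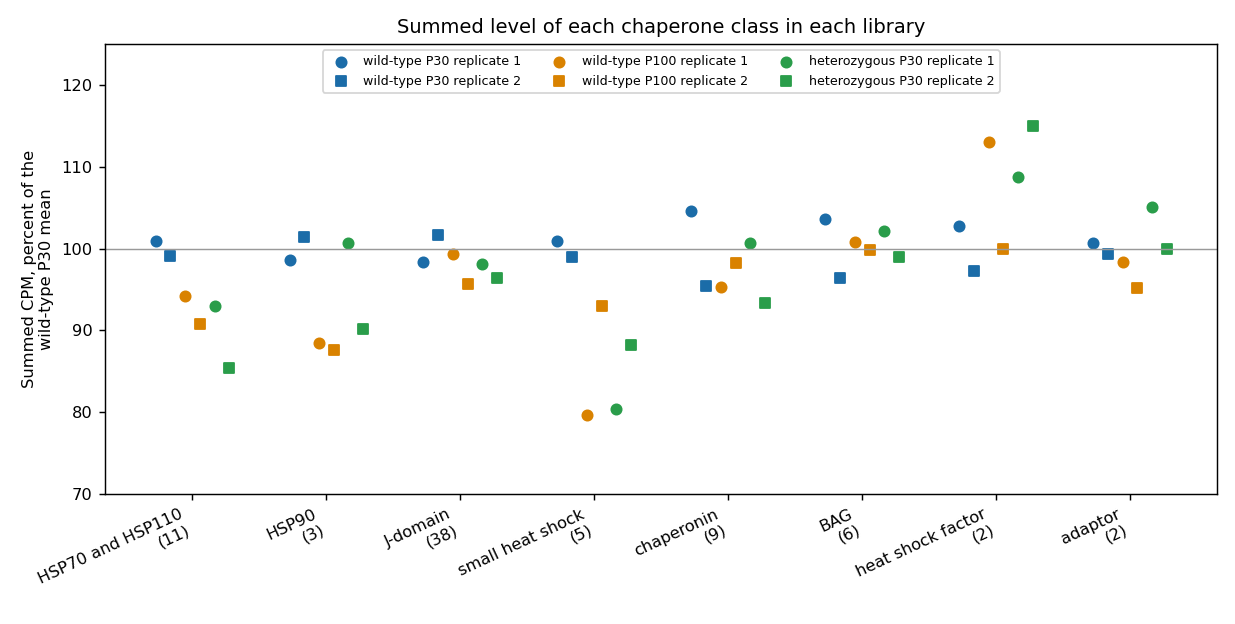
Summed TMM-scaled CPM of each chaperone class in each of the 6 libraries, as a percentage of the wild-type P30 mean of that class (number of genes in brackets, the axis does not start at 0). The HSP70 and HSP110 and the small heat shock sums of the P100 and heterozygous libraries lie below both wild-type P30 libraries, as do the HSP90 and adaptor sums of P100 and the J-domain sums of heterozygotes.

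Grouped by programme and place, 13 members were on a list of textbook heat shock targets, which also takes in the constitutive Hspa8. They are Hspa8, Hsph1, Hspa4l, Hsp90aa1, Hsp90ab1, Dnaja1, Dnajb1, Dnajb4, Cryab, Bag3, Hspd1, Hspe1 and Stip1. Of these 2 fell with age (Hsph1 and Cryab) and 2 in heterozygotes (Hspa8 and Hsph1), beside 4.54% and 2.32% of all genes. None rose in edgeR, DESeq2 or limma-voom. Median log2 differences were -0.20 for age and -0.14 for genotype, each with 11 of 13 values negative, beside 0.00 over all genes. At an unadjusted p under 0.05 in edgeR, 7 were lower and none higher with age (12.3% and 10.4% of all genes), and 4 lower and none higher in heterozygotes (9.8% and 7.53% of all genes). This list was chosen with earlier results of these data known. It also held Hspa1a, Hspa1b and Hspb1, which lie below the minimum total and outside these counts. For age Hspa1b differed by 1.31 and Hspa1a by -0.21, and for genotype by -0.43 and -0.21, none past the threshold. Hspb1 had too few counts to be tested. Of the 13 ER members none passed in the main edgeR fit, DESeq2 or limma-voom. In edgeR 1 and 3 of them were lower at an unadjusted p under 0.05, and the medians were 0.09 and -0.04. Of the 9 mitochondrial members 2 rose with age, Dnajc28 and Dnajc19, beside 3% of all genes called higher. The medians of the 9 were 0.12 and 0.07. For age 4 of the 9 values were negative, the lowest that of Hspd1 (-0.40).

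Partners outside the chosen genes were counted in the same fit. None of 19 HSP90 co-chaperones, 9 prefoldin and chaperonin partners or 8 mitochondrial import and folding genes passed for age or genotype in edgeR, DESeq2 or limma-voom. At an unadjusted p under 0.05 in edgeR, 4 co-chaperones were lower with age and 2 higher in heterozygotes. In each of the other lists 2 genes were higher with age. The shares of all genes were 12.3% lower and 10.4% higher for age, and 7.53% higher for genotype. Of 19 genes of ER folding and the unfolded protein response, 3 fell and 1 rose with age, and 4 fell in heterozygotes, beside 4.54%, 3% and 2.32% of all genes. In heterozygotes DESeq2 called 2 of them lower, and limma-voom 4. Serpinh1, a collagen chaperone, had 19.7 and 17.1 CPM at wild-type P30, 7.96 and 9.68 at P100 and 11.5 and 13.2 in heterozygotes. It fell 2.09-fold and 1.48-fold (edgeR adjusted p = 0.00116 and 0.0482). The lectin chaperone gene Calr fell 1.25-fold in both (adjusted p = 0.019 and 0.0305), and the disulfide isomerase gene Pdia3 fell 1.32-fold with age (0.0124). In heterozygotes Hyou1, an ER relative of HSP110, fell 1.27-fold (0.0267) and the stress response factor Atf4 1.42-fold (0.0275), while the ER stress sensor Atf6 rose 1.23-fold with age (0.0229). Of 8 further genes, Hsbp1, a binding partner of Hsf1, fell 1.27-fold with age (0.0195).

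In the authors' deposited tables, 5 of 320 listed member transcripts were past an adjusted p of 0.05 for age, 4 lower and 1 higher, from Dnajb5, Hsph1 and Dnajc28. For genotype the authors' deposited table called 11 transcripts, all lower, from Dnajb5, Hspa8 and Hsph1. For the Dnajb5 transcript used here the authors' deposited tables gave log2 differences of -1.23 for age and -0.83 for genotype, and for that of Hspa8 -0.28 and -0.74. For the Hsph1 transcript used here they gave -0.35 and -0.37, called in neither (the authors' deposited adjusted p = 0.0539 and 0.444), so its calls there came from other isoforms. Cryab and Dnajc19, called here for age, had no called transcript in the authors' deposited table.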

How the data were processed

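The authors sequenced layer IV RNA. The deposited counts were raw read counts per Ensembl transcript, per the file headers. Bowtie, HTSeq, DESeq 1.8.3 and mm10 are listed in the submitters' processing notes. Settings, strand, read length and annotation release are not given in the sources used here. Per transcript, the authors' deposited comparisons hold a log2 difference and an adjusted p-value, per the file headers.

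A gene's values are those of its transcript with most counts. Transcripts without a gene (13.96% of counts) were left out. Hspa14 stood for 2 gene IDs, and the ID with more counts was kept. Low counts were filtered with filterByExpr (minimum count of 10, minimum total of 15). The minimum count, taken relative to library size, was required in as many libraries as the smallest group holds, not in every library. After TMM scaling, counts were tested with edgeR 4.0.16 (R 4.3.3) by the quasi-likelihood test over 6 libraries in 3 groups. The fit had 3 residual degrees of freedom, with Benjamini-Hochberg adjustment over 15841 genes and a threshold of 0.05. The procedure was tested on simulated data. Levels are TMM-scaled CPM. Coordinates, types and lengths came from GENCODE M21 (mm10), and promoter letters from RefSeq (GRCm38.p6).

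Members, lists and the naming rule were chosen with earlier results of these data known. The rule names members called in any comparison, core heat shock genes, and the extremes of each class. Any other gene named was picked with its values known. The settings varied were scaling (RLE, upper quartile), the filter (none, CPM of 1 in 2 libraries), DESeq2 1.42.0, limma-voom (limma 3.58.1), summed isoforms, only the 4 libraries compared, a replicate block, each library left out, and, chosen after seeing the data, the top protein-coding isoform.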

Additional observations from a re-analysis of the deposited data

How the results depend on the processing

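Under 16 alternatives each, the Dnajb5 calls (age and genotype) and the Hspa8 genotype call kept direction and threshold, and none of the 10 called gene results changed direction. The count of members lower with age was 7 and lower in heterozygotes 5 without a filter on low counts, where 4 members were higher in heterozygous P30 than in wild-type P100. The added calls were Bag1, Hsp90ab1, Hspa12a and Hspa8 for age, and Hspa5 and Dnajc21 in heterozygotes. The count higher with age was 1 with DESeq2, with summed isoforms and with only the 4 libraries compared. Members higher in heterozygous P30 than in wild-type P100 numbered 1 with upper-quartile scaling, DESeq2 or the replicate block and 2 with only the 4 libraries compared, and 1 was lower with summed isoforms. With 1 library left out, where the lone library of a group is assumed to vary like the others, counts ran from 0 to 1 (age, higher), 1 to 3 (age, lower), 2 to 6 (genotype, lower), 0 to 2 (heterozygous P30 against wild-type P100, higher) and 0 to 3 (heterozygous P30 against wild-type P100, lower). The count lower with age was 1 without wild-type P100 replicate 2, and that lower in heterozygotes was 6 without wild-type P30 replicate 1. Medians over the members then ran from -0.014 to 0.0278 (age), -0.0439 to 0.0138 (genotype) and -0.0631 to -0.0011 (heterozygous P30 against wild-type P100). The top protein-coding isoform gave the same counts.

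A fit with the replicate number as a block gave 2 higher and 4 lower for age, 0 and 4 for genotype and 1 and 2 for the heterozygous P30 against wild-type P100. The labels do not say that the numbers pair libraries, and deviations of same-numbered libraries correlated at -0.00, 0.10 and -0.00 over 15841 genes.

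Of 56 gene results that did not pass, 8 passed under some alternative and 17 changed sign. With 1 library left out, their log2 differences ran as follows. For age, Bag3 ran from -0.123 to 0.117, Cct7 from -0.0542 to 0.214, Hsf1 from -0.087 to 0.177, Hsp90aa1 from -0.146 to 0.0694, Hspa5 from -0.262 to 0.0145, Hspa9 from -0.0354 to 0.0294 and St13 from -0.0208 to 0.0631. For genotype, Bag1 ran from -0.134 to 0.218, Bag3 from -0.23 to 0.0899, Bag6 from -0.256 to 0.0859, Cct7 from -0.229 to 0.0392, Hsp90aa1 from -0.0267 to 0.229, Hsp90ab1 from -0.0911 to 0.0699, Hspa12a from -0.0489 to 0.0823, Hspa9 from -0.0187 to 0.0461, Hspb11 from -0.383 to 0.0938 and Hspb8 from -0.0346 to 0.424. Summed isoforms gave Hsp90aa1 0.0321 and Hspa9 0.0251 for age, and upper-quartile scaling gave Hspa9 0.007 for age and Hsp90ab1 0.0014 for genotype. The causes were not tested. Duplicates differed by 4.17 to 5.40 times the chi-square that counting error gives per degree of freedom. Hspb6, Dnajc17, Bag3 and Hspb11, at 1 to 4 CPM, had the fewest counts among the members.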
